A study of Homo sapiens with 16 samples.

Results

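The genes described here are 9 genes of the urea cycle and of arginine metabolism, ASS1, ASL, ARG1, ARG2, CPS1, OTC, NAGS, OAT and ODC1, read out of 35810 annotated genes in human pancreatic progenitor cells treated with latrunculin B (LatB). The list was chosen by the measured rise of ASS1 after the drug, so the ASS1 values with LatB are a description and carry no test. The other 8 genes were taken for their place in the pathway, with earlier results of these data known. Of the 9 members, 7 passed the filter on low counts and were among the 16705 genes tested, and each of these 7 had at least 23 reads in every library. ARG1 and OTC did not pass.

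The 16 polyA RNA libraries came from the hESC line SA121 carrying the NGN3-GFP reporter, which marks the onset of endocrine fate through NEUROG3, after differentiation to pancreatic progenitors at day 19. Sets of 3 libraries were made at 0 h (control 0 h) and after 3, 6 and 24 h with 0.5 µM latrunculin B, a toxin that binds actin monomers and depolymerizes filaments, and 2 libraries each after 12 h with LatB and after 24 h with DMSO (control 24 h). The study asked which steps lie between the loss of actin filaments and endocrine specification. The 0 h libraries carry a DMSO label although they are described as taken before treatment, no vehicle libraries stand beside 3, 6 and 12 h, and all cells descend from 1 reporter line. Nothing states that the libraries of a group came from separate cultures, so the p-values measure the spread between these samples, which may be technical.

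Library depth was 23609727 to 33515398 assigned reads, and log2 levels of libraries of the same group correlated across genes at 0.9802 to 0.9864 except for the 12 h pair, at 0.9674. All 9 pancreatic progenitor markers were detected, with a summed level of 1330.8 to 2463.1 TPM (transcript level per length and depth). Detected means at least 10 reads in some library. GP2 supplied most of this sum, at 882.1 to 2001.8 TPM, and PTF1A had at most 22 reads. Of 6 intestinal markers, VIL1 was at 39.4 to 123.3 TPM and CDX2 at 18.5 to 66.5, while CDX1 and FABP2 were under 10 reads in every library. Of 10 hepatocyte markers, a list examined because the liver is the main site of the urea cycle, 9 were detected and CYP3A7 was under 10 reads in every library. Their summed level was 1874.5 to 2226.5 TPM at 0 h, 2650.6 to 2695.4 in control 24 h, 2432.6 to 2772.8 at 3 h, 2969.2 to 3122.5 at 6 h, 2948.2 to 4458.0 at 12 h and 2084.1 to 2746.9 at 24 h with LatB. The sum was mostly FGB, APOA1, TTR and SERPINA1, and ALB was at most 6.63 TPM in any library. FGB went from 783.8 to 878.7 TPM at 0 h to 1650.9 to 1851.9 at 6 h. APOA1, TTR and SERPINA1 overlapped their 0 h values at 6 h. ALB, AFP, APOB and TF were higher at 6 h, at far lower levels. Summed endocrine markers were at 19.8 to 25.1 TPM at 0 h, 24.3 to 35.5 at 3 h, 39.3 to 50.4 at 6 h, 38.6 to 72.5 at 12 h and 68.4 to 181.4 at 24 h with LatB, against 43.2 to 51.2 TPM in control 24 h. CHGA made up most of this sum at 0 h (16.6 to 21.9 TPM) and in control 24 h (33.2 to 40.5 TPM). NEUROG3 was at 2.64 to 3.34 TPM at 6 h and 6.91 to 12.8 at 12 h, above its 1.84 to 2.07 in control 24 h. INSM1 and NKX2-2 also lay above control 24 h at both times. INS lay below it at both times and GCG at 6 h. PAX4 and CHGA overlapped it at both times and NEUROD1 at 6 h. The 6 mesenchyme markers summed to 422.8 TPM in 1 of the 12 h libraries against at most 127.3 TPM in the other groups. The part of these shifts in the results below was not tested.

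The urea cycle turns ammonia into urea for excretion. In mitochondria, NAGS makes the activator that CPS1 needs to build carbamoyl phosphate, and OTC joins this to ornithine to give citrulline. In the cytosol, ASS1 condenses citrulline with aspartate, and ASL splits the product into arginine and fumarate. Arginases (ARG1 in the cytosol of hepatocytes, ARG2 in mitochondria of many tissues) cleave arginine into urea and ornithine, which OAT routes toward proline and glutamate and ODC1 toward the polyamines. The full cycle runs in hepatocytes and in part in the intestine. Most other cells use ASS1 and ASL to remake arginine from citrulline.

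The promoters of ASS1, ARG2 and ODC1 are shown because these are the members with the clearest differences under the drug. Each run is the 250 bases upstream of the RefSeq start on GRCh38.p14, written 5′ to 3′ on the strand of the gene, with the E-box CACGTG and the cAMP response element TGACGTCA in capitals. ASS1 lies at chr9:130444711-130444960 (plus strand), ARG2 at chr14:67619670-67619919 (plus strand) and ODC1 at chr2:10448328-10448577 (minus strand).
ASS1: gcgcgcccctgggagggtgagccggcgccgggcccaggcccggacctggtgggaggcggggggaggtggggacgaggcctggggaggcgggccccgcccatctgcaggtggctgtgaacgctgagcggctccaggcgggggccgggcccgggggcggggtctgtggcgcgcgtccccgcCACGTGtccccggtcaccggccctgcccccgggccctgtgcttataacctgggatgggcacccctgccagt
ARG2: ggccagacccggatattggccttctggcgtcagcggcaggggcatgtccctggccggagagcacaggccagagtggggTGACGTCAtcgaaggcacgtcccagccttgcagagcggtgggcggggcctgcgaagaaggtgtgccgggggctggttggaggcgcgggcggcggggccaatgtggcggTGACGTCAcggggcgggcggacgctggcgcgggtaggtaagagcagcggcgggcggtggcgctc
ODC1: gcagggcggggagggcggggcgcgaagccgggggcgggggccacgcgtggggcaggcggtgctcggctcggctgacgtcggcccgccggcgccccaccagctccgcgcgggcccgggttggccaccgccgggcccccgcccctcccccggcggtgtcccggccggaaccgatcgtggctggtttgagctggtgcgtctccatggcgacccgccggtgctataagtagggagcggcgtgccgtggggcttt
ASS1 held 1 E-box, 71 bases before the start, a motif present in 6.34% of 35116 promoter windows of this length. It was the only member with that motif in this window. ARG2 held 2 cAMP response elements, 172 and 64 bases before the start, a motif found in 1.65% of all windows. ODC1 held neither. The GC box GGGCGG, searched on both strands as GGGCGG and CCGCCC and present in 42.6% of windows, occurred in the windows of ASS1, ASL, ARG2, NAGS, OAT and ODC1 and not in those of CPS1, OTC and ARG1, and CCAAT (or ATTGG, in 32% of windows) occurred in those of ASL, ARG2 and OAT. These matches describe letters only.

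ASS1 (ENSG00000130707.18, GRCh38 chr9:130444961-130501274) stood low in untreated cells and several times higher with LatB. Its levels, in CPM (reads relative to library size, scaled by the trimmed mean of M-values), were 4.3, 4.26 and 5.01 at 0 h and 5.15 and 5.95 in control 24 h. With LatB they were 14.8, 17.4 and 21.8 at 3 h, 38.5, 39.1 and 45.1 at 6 h, 41.8 and 37.0 at 12 h, and 17.2, 42.6 and 38.0 at 24 h. Each of the 11 treated libraries lay above all 5 control libraries. In raw reads this is 108 to 190 in control libraries and 463 to 1388 in treated ones.

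The fitted ratio of ASS1 to control 0 h was 3.99 at 3 h, 9.06 at 6 h and 8.73 at 12 h, and the ratio to control 24 h was 5.87 at 24 h. On the log2 scale these are differences of 2.0, 3.18, 3.13 and 2.55. The gene was therefore already high at the earliest time sampled and highest at 6 and 12 h, which goes against the description of its rise as late. By mean CPM the groups ran from control 0 h (4.52 ± 0.419, SD, n = 3), control 24 h (5.55 ± 0.564, n = 2) and LatB 3 h (18.0 ± 3.56, n = 3) to LatB 24 h (32.6 ± 13.6, n = 3), LatB 12 h (39.4 ± 3.38, n = 2) and LatB 6 h (40.9 ± 3.68, n = 3). Libraries of LatB 3 h and 24 h overlapped, as did those of 24 h and 12 h and of 12 h and 6 h, so the order among the last 3 groups is not larger than their spread. At 24 h replicate 1 stood apart at 17.2 CPM, and without it the difference from control 24 h was 2.86 on the log2 scale.

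**Figure D1:**
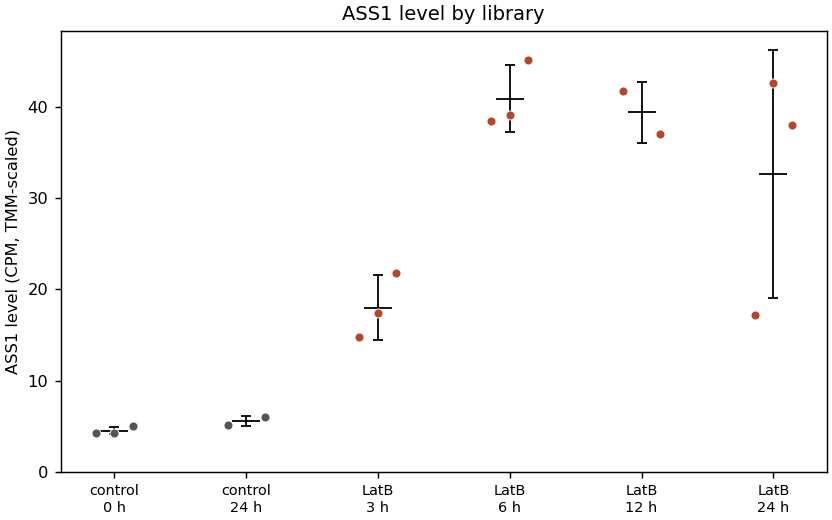
ASS1 level in CPM (vertical axis) in each library, by group (horizontal axis), with the group mean and SD as a bar and whiskers, controls in grey and LatB in red. The 5 control libraries sit between 4.26 and 5.95 CPM and all 11 treated libraries sit at 14.8 CPM or above, with replicate 1 of LatB 24 h at 17.2.

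The controls were the only groups between which ASS1 was tested, and even these libraries are the references of the contrasts for which it was chosen. Control 24 h exceeded control 0 h by 0.30 on the log2 scale (SE 0.33), which was not called by edgeR's quasi-likelihood test (adjusted p = 0.929, Benjamini-Hochberg over all genes tested). The 95% interval of this difference was -0.41 to 1.01. In the same comparison 0 of the other 6 tested members were called against 0.251% of all genes (0.0299% as higher, 0.221% as lower), none had an unadjusted p under 0.05, and DESeq2 called 0.

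Most ASS1 reads were assigned to the transcript ASS1-201, which took 92.2 to 100% of them at 0 h, 75.8 to 82.6% at 3 h, 81.7 to 88.9% at 6 h, 92.2 to 94.5% at 12 h and 83.2 to 92.6% at 24 h with LatB, and 88.3 to 96.9% in control 24 h. A set of 13 annotated pseudogenes of ASS1, near-identical copies between which reads can be split, held 7 to 24 reads per library in sum. This equals 5.51 to 13% of the ASS1 reads at 0 h and 0.872 to 1.48% at 6 h. The copies thus add most to the lowest ASS1 values, and with them included the level at 0 h was 4.96 CPM.

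The mitochondrial entry to the cycle was weakly expressed and OTC was close to absent. OTC (chrX:38352586-38421446), which forms citrulline, had 1, 1 and 2 reads at 0 h, 1 and 0 in control 24 h, 1, 1 and 1 at 3 h, 0, 1 and 1 at 6 h, 1 and 1 at 12 h and 5, 4 and 1 at 24 h with LatB. These counts are at or near the limit that a count of 0 allows, 3 reads, and no fold is given. NAGS and CPS1 were detected at 23 to 70 and 43 to 172 reads per library. At 0 h their mean levels were 0.825 and 0.956 TPM, above those of 15.7% and 17.3% of the genes tested.

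CPS1 (ENSG00000021826.18, chr2:210477682-210679107), the carbamoyl phosphate synthetase, was at 2.51, 2.31 and 2.55 CPM at 0 h and 2.68 and 2.66 CPM in control 24 h. With LatB it was at 3.01, 3.18 and 4.40 CPM at 3 h, 1.79, 1.63 and 3.19 CPM at 6 h, 3.19 and 3.59 CPM at 12 h and 3.04, 5.28 and 4.39 CPM at 24 h. The 3 libraries at 24 h all lay above both control 24 h libraries, but the difference of 0.67 on the log2 scale (SE 0.29, edgeR adjusted p = 0.0804) was not called. It passed without replicate 1 of LatB 24 h (0.86, adjusted p = 0.0304) and against control 0 h in place of control 24 h (0.79, adjusted p = 0.0244), and the adjusted p reached 0.506 under the other alternatives. At 3, 6 and 12 h the log2 differences were 0.52, -0.16 and 0.47, none of them called.

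NAGS (ENSG00000161653.11, chr17:44004622-44009068) was at 1.67, 1.01 and 1.10 CPM at 0 h and 1.15 and 1.13 CPM in control 24 h. Its levels with LatB were 0.735, 0.866 and 0.92 CPM at 3 h, 1.41, 1.70 and 1.82 CPM at 6 h, 1.62 and 1.08 CPM at 12 h and 1.57, 2.15 and 1.46 CPM at 24 h. All 3 h libraries lay below the 0 h libraries and all treated 24 h libraries above the control 24 h libraries, yet neither log2 difference, -0.58 at 3 h (edgeR adjusted p = 0.102) and 0.60 at 24 h (0.1), was called. The difference between these effects was 1.18 on the log2 scale (SE 0.38, adjusted p = 0.0317). That call was lost without a filter on low counts (1.17, adjusted p = 0.063), with an offset for transcript length (1.20, adjusted p = 0.0597) and with a replicate block. The adjusted p ran from 0.0183 to 0.0923 over all alternatives, and the value fell to 0.53 by limma-trend on TPM with a pseudocount of 1. The call was also lost when replicate 1 of control 0 h, either control 24 h library, replicate 1 of LatB 3 h or replicate 2 of LatB 24 h was left out, with values of 0.92 to 1.33 over all 11 omissions. In addition, 45.8 to 91.5% of NAGS reads were assigned to NAGS-203, a retained-intron transcript, across the groups.

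ASL (ENSG00000126522.17, chr7:66075800-66094697), the lyase that follows ASS1, did not share its early difference. It was at 14.3, 15.7 and 15.3 CPM at 0 h, 13.4, 13 and 13.1 CPM at 3 h and 15.9, 15.4 and 13.9 CPM at 6 h. The later levels were 18.0 and 22.6 CPM at 12 h and 20.2, 18.0 and 17.8 CPM at 24 h with LatB, against 14.7 and 13.7 CPM in control 24 h. The 3 h libraries were the lowest and the 12 and 24 h libraries the highest, without overlap with their controls. ASL rose by 0.43 on the log2 scale at 12 h (SE 0.10, edgeR adjusted p = 0.00395) and by 0.40 at 24 h (SE 0.10, adjusted p = 0.00581). The log2 differences at 3 h (-0.20, adjusted p = 0.104) and 6 h (0.00, 95% interval -0.19 to 0.19) were not called.

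The effect of LatB on ASL at 24 h exceeded that at 3 h by 0.60 on the log2 scale (SE 0.13, edgeR adjusted p = 0.00469), and this call held without each of the 11 libraries in turn, with values of 0.54 to 0.65. The rise at 12 h was lost without replicate 2 of that group (0.25, adjusted p = 0.0741, and 0.000455 to 0.0745 over all alternatives) and that at 24 h without replicate 2 of control 24 h (0.34, adjusted p = 0.0587, and 0.00333 to 0.0967 over all alternatives). When only the compared groups were fitted, the rise at 12 h was not called either. The rise at 24 h was also not called on TPM (0.28 with a pseudocount of 1, limma-trend adjusted p = 0.0967) or with an offset for transcript length (0.32, edgeR adjusted p = 0.0514). A protein-coding gene on the same strand whose annotation overlaps ASL held 24 to 92 reads per library, and ASL-205 took 32.8 to 69.9% of the ASL reads.

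**Figure D2:**
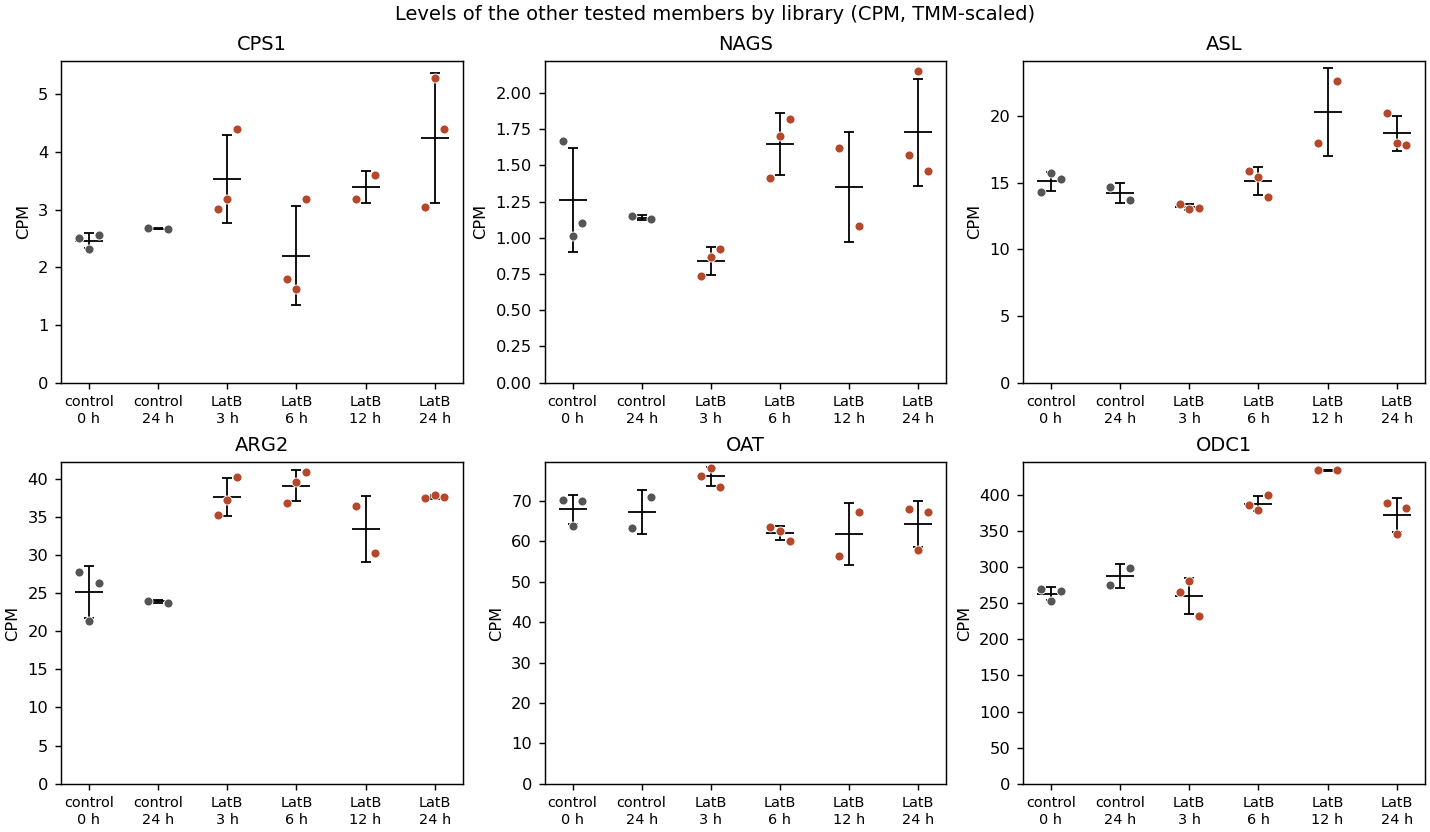
Levels in CPM (vertical axes, each starting at 0) of CPS1, NAGS, ASL, ARG2, OAT and ODC1 in each library, by group, with the mean and SD. ARG2 is above the controls in every treated group, ODC1 at 12 h stands near 435 CPM against at most 270.0 at 0 h, and OAT stays between 56.5 and 78.3 CPM.

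ASS1 and ASL act in sequence, and their TPM ratio within each library was 0.282 to 0.332 at 0 h and 0.337 to 0.443 in control 24 h. It was 1.09 to 1.62 at 3 h, 2.70 to 3.69 at 6 h, 1.85 to 2.41 at 12 h and 0.846 to 2.78 at 24 h with LatB. ASS1 was thus the less abundant transcript of the pair in all 5 control libraries and the more abundant in 10 of 11 treated ones. Because ASS1 enters the ratio, it is a description. The ASS1 side includes ASS1-202, with no defined coding sequence, at 0 to 1.01 TPM at 0 h and 5.09 to 12.3 at 6 h. The ASL side includes ASL-207, a retained-intron transcript, at 3.25 to 3.67 TPM at 0 h and 1.84 to 3.33 at 6 h.

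**Figure D3:**
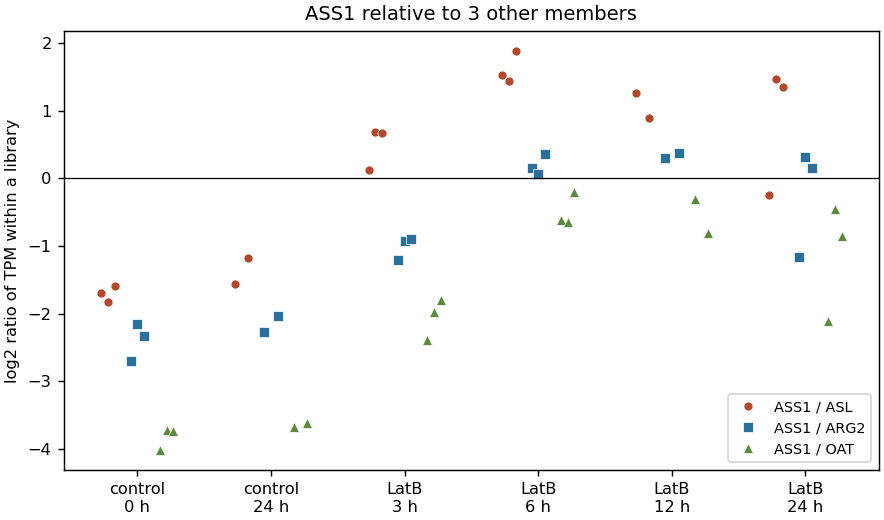
Ratio of ASS1 to ASL, ARG2 and OAT in TPM within each library, on a log2 axis, by group. The ratio to ASL passes the line of equal level (0) in 10 of 11 treated libraries, and replicate 1 of LatB 24 h lies below the other libraries of its group for all 3 ratios.

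On the side of arginine use, ARG2 rose at every time. ARG2 (ENSG00000081181.8, chr14:67619920-67651708), the mitochondrial arginase, was at 27.8, 21.3 and 26.3 CPM at 0 h and 24.0 and 23.7 CPM in control 24 h. With LatB its levels were 35.2, 37.2 and 40.2 CPM at 3 h, 36.8, 39.5 and 40.9 CPM at 6 h, 36.4 and 30.3 CPM at 12 h and 37.4, 37.8 and 37.6 CPM at 24 h. No treated library overlapped a control library. The log2 rises were 0.58 at 3 h (SE 0.09, edgeR adjusted p = 0.000342), 0.64 at 6 h (SE 0.09, adjusted p = 0.000109), 0.41 at 12 h (SE 0.10, adjusted p = 0.00764) and 0.65 at 24 h (SE 0.10, adjusted p = 0.000297). The effect at 24 h did not differ detectably from that at 3 h, with a difference of 0.07 and a 95% interval of -0.23 to 0.37.

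The rise at 12 h was lost without replicate 1 of LatB 12 h (0.27, edgeR adjusted p = 0.0904, and 0.00205 to 0.11 over all alternatives). The rise of ARG2 at 12 h was also not called when only the compared groups were fitted. The isoform ARG2-201 took 96.2 to 99.8% of the reads. VTI1B, a gene on the opposite strand whose annotation overlaps ARG2, had 2276 to 3684 reads per library, and the library kit is not stated to mark strand, so reads of the shared stretch cannot be told apart. ARG1 (chr6:131470832-131584332), the liver arginase, had 0 to 6 reads per library, and its annotation likewise overlaps MED23, which held 1069 to 1681 reads. Arginase transcripts were thus almost all ARG2 in every group.

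Ornithine, the product of arginase, is used by OAT and ODC1, and the 2 genes differed. OAT (ENSG00000065154.12, chr10:124397303-124418976), the mitochondrial ornithine aminotransferase, was at 70.3, 63.8 and 69.9 CPM at 0 h and 63.3 and 71.0 CPM in control 24 h. Its levels were 76.3, 78.3 and 73.6 CPM at 3 h, 63.6, 62.7 and 60.0 CPM at 6 h, 56.5 and 67.3 CPM at 12 h and 68.0, 57.8 and 67.4 CPM at 24 h with LatB. The 3 h libraries lay above and the 6 h libraries below all 0 h libraries, whereas those at 12 and 24 h overlapped their controls. OAT was not called in any comparison, with log2 differences of 0.16, -0.13, -0.13 and -0.06 at 3, 6, 12 and 24 h, and the 95% interval at 24 h was -0.24 to 0.12. It was called higher at 3 h when only the compared groups were fitted (0.16, adjusted p = 0.0384) and lower at 6 h without scaling beyond library size (-0.22, adjusted p = 0.0463).

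ODC1 (ENSG00000115758.14, chr2:10439968-10448327), which makes putrescine and sets the pace of polyamine synthesis, was the most abundant member, above 96.7% of the genes tested in TPM at 0 h. It was at 270.0, 253.5 and 266.8 CPM at 0 h, 276.0 and 299.6 CPM in control 24 h and 266.0, 281.4 and 232.0 CPM at 3 h. From 6 h it was higher, at 385.6, 379.4 and 399.7 CPM at 6 h, 435.2 and 434.1 CPM at 12 h and 389.6, 345.8 and 382.1 CPM at 24 h. The libraries from 6 h on did not overlap any control library, and those at 3 h spanned the 0 h values. ODC1 rose by 0.56 on the log2 scale at 6 h (SE 0.07, edgeR adjusted p = 2.32e-05), 0.72 at 12 h (SE 0.07, adjusted p = 1.04e-05) and 0.37 at 24 h (SE 0.08, adjusted p = 0.00162), and differed by -0.02 at 3 h (adjusted p = 0.856).

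The effect on ODC1 at 24 h exceeded that at 3 h by 0.39 on the log2 scale (SE 0.10, edgeR adjusted p = 0.0111). This call was lost without replicate 1 of control 24 h (0.33, adjusted p = 0.069, and 0.00183 to 0.069 over all alternatives). In TPM, ODC1 was 3.26 to 3.32 times OAT at 0 h, 2.79 to 3.23 times at 3 h, 5.61 to 6.34 times at 12 h and 4.64 to 4.85 times at 24 h with LatB, against 3.60 to 3.78 times in control 24 h. The transcripts ODC1-201 and ODC1-202 took 56.2 to 67.7% and 30.6 to 39.8% of its reads across groups.

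Among the 6 tested members other than ASS1, 1 rose at 3 h (ARG2), where 31.6% of all 16705 genes were called, 16.8% as higher and 14.7% as lower. At 6 h 2 rose (ARG2 and ODC1), against 43.3% of all genes called, 22.9% as higher and 20.4% as lower. At 12 h 3 rose (ASL, ARG2 and ODC1), against 35.8% called, 19.1% as higher and 16.8% as lower. The same 3 rose at 24 h, against 40.8% called, 21.9% as higher and 18.8% as lower. No member was called lower in these comparisons, but without scaling beyond library size ASL was at 3 h (-0.28, adjusted p = 0.0443) and OAT at 6 h (-0.22, adjusted p = 0.0463). The share of the 6 members called, from 16.7% to 50%, lay below the share of all genes called at 3 and 6 h and above it at 12 and 24 h, where 1 member fewer would put it below. When the effect at 24 h was set against that at 3 h, 3 members were called (NAGS, ASL and ODC1), all positive, against 27.9% of all genes, 14.6% as positive and 13.4% as negative. Without replicate 1 of control 24 h this count fell to 1.

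**Figure D4:**
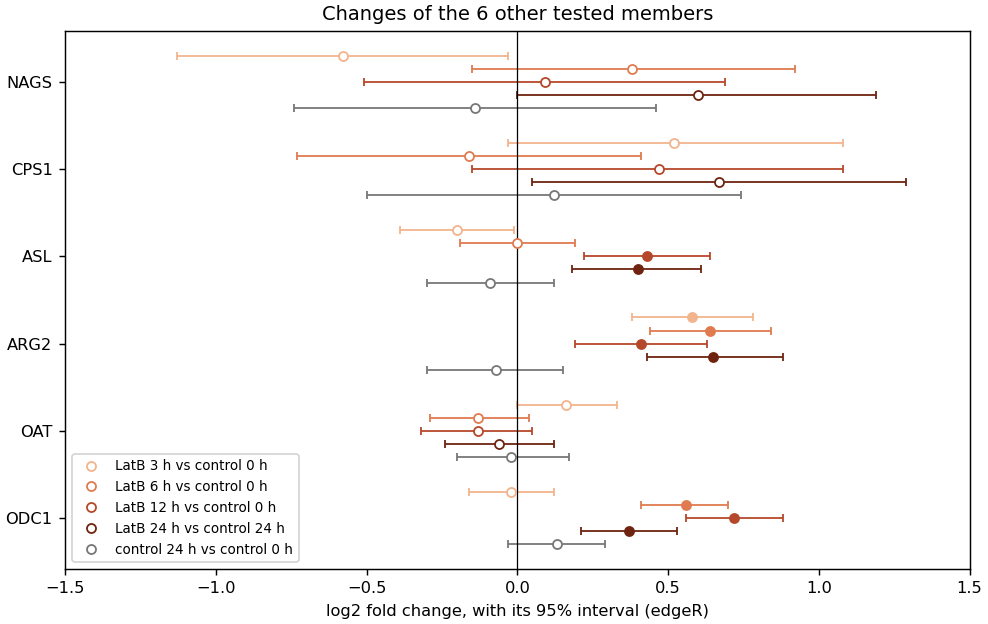
Log2 fold change (horizontal axis) with its 95% interval for the 6 tested members other than ASS1 (rows) in the 5 comparisons between groups (colours), with filled points for adjusted p under 0.05. ARG2 is filled at all 4 times of LatB, ODC1 from 6 h and ASL at 12 and 24 h, and no point is filled between the controls.

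The comparisons at 3, 6 and 12 h share the same 0 h libraries. In these bulk libraries, fewer cells of a type and less RNA per cell cannot be told apart.

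The surrounding pathway was followed in 46 further genes in 4 lists, of which 43 were tested. Of these, 11 were called at 3 h (8 higher, 3 lower), 23 at 6 h (12 higher, 11 lower), 18 at 12 h (11 higher, 7 lower) and 23 at 24 h (15 higher, 8 lower), that is 25.6%, 53.5%, 41.9% and 53.5% of those tested beside 31.6%, 43.3%, 35.8% and 40.8% of all genes. The median log2 difference of the 43 genes was 0.07, 0.04, 0.07 and 0.07 in turn, and that of all genes 0.00, -0.01, 0.01 and 0.01. Between the controls 0 were called by edgeR and 0 by DESeq2, with 5 at an unadjusted p under 0.05.

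At 3 h the largest rises called among these genes were those of arginine importers. SLC7A1, a cationic amino acid transporter that brings arginine into many cell types, was at 47.8 ± 3.84 CPM at 0 h (SD, n = 3), 124.6 ± 13.5 at 3 h and 162.5 ± 8.21 at 6 h, and then at 45.8 ± 7.43 at 12 h (n = 2). It rose by 1.38 on the log2 scale at 3 h (SE 0.10, edgeR adjusted p = 4.56e-07) and 1.77 at 6 h (SE 0.10, adjusted p = 4.04e-08). The difference at 12 h was -0.06 (adjusted p = 0.692), and at 24 h SLC7A1 was 0.43 higher than in control 24 h (adjusted p = 0.0063).

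SLC7A2, a second arginine carrier, was at 620.0 ± 44.5 CPM at 0 h, 1279.3 ± 61.0 at 3 h, 1858.4 ± 96.6 at 6 h, 700.8 ± 222.1 at 12 h and 683.3 ± 72.4 at 24 h with LatB. Its log2 rises were 1.05 at 3 h (SE 0.13, edgeR adjusted p = 4.61e-05) and 1.58 at 6 h (SE 0.13, adjusted p = 1.02e-06), while the differences at 12 h (0.18) and 24 h (0.07) were not called. For both carriers the effect at 24 h was smaller than that at 3 h, with a log2 difference of -0.95 for SLC7A1 (adjusted p = 0.000424) and -0.97 for SLC7A2 (adjusted p = 0.0022). SLC7A7, the light chain of a transporter that exports cationic amino acids, fell by 1.80 at 24 h (SE 0.18, adjusted p = 7.7e-06), from 16.5 ± 0.896 CPM in control 24 h to 4.72 ± 0.811.

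NOS2, the inducible nitric oxide synthase, was at 2.58 ± 0.353 CPM at 0 h and 2.05 ± 0.598 in control 24 h, and rose by 1.58 on the log2 scale at 12 h (SE 0.26, edgeR adjusted p = 0.00038) and 1.90 at 24 h (SE 0.28, adjusted p = 0.000149). AGMAT, named as an agmatine hydrolase, rose by 0.85 at 6 h (adjusted p = 0.0321) and 1.17 at 24 h (adjusted p = 0.0136) at a low level, 0.957 ± 0.108 CPM in control 24 h and 2.15 ± 0.619 with LatB. AZIN2, a regulator of ornithine decarboxylase activity, fell by 0.95 at 6 h, 0.58 at 12 h and 1.17 at 24 h (adjusted p = 0.000268, 0.019 and 0.000141). GAMT, which completes creatine synthesis, had an effect at 24 h that exceeded that at 3 h by 0.74 (adjusted p = 0.000703). In this list of 15 tested genes 3 were called at 3 h, 7 at 6 h, 5 at 12 h and 9 at 24 h, that is 20%, 46.7%, 33.3% and 60% beside 31.6%, 43.3%, 35.8% and 40.8% of all genes.

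In the polyamine list, 3 of 10 genes were called at 3 h, 3 at 6 h, 4 at 12 h and 5 at 24 h, beside 31.6%, 43.3%, 35.8% and 40.8% of all genes. AMD1, which supplies the aminopropyl donor for spermidine and spermine, was at 83.6 ± 4.58 CPM at 0 h and 163.8 ± 8.52 at 3 h. It rose by 0.97 on the log2 scale at 3 h (SE 0.07, edgeR adjusted p = 4.44e-07), when ODC1 differed by -0.02, and by 0.92 at 6 h (adjusted p = 4.3e-07). SAT1, which acetylates polyamines for breakdown and export, fell by 0.89 at 12 h (SE 0.15, adjusted p = 0.000471) and 1.0 at 24 h (SE 0.14, adjusted p = 0.000123), from 260.3 ± 19.7 CPM in control 24 h to 129.9 ± 7.44.

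Of the 12 tested genes of the urea cycle and ammonia supply list, 4 were called at 3 h, 10 at 6 h (4 higher, 6 lower), 8 at 12 h and 7 at 24 h. These are 33.3%, 83.3%, 66.7% and 58.3% of the list, beside 31.6%, 43.3%, 35.8% and 40.8% of all genes. SLC25A15, the mitochondrial ornithine carrier, fell by 0.30 at 3 h (edgeR adjusted p = 0.00504), by 0.47 at 6 h (adjusted p = 0.000127) and by 0.43 at 12 h (adjusted p = 0.000953). CAD, the cytosolic enzyme that makes carbamoyl phosphate for pyrimidines, fell by 0.24 at 3 h (adjusted p = 0.0255) and by 0.28 at 6 h (adjusted p = 0.00829) and rose by 0.29 at 24 h (adjusted p = 0.0136). Its effect at 24 h exceeded that at 3 h by 0.52 (adjusted p = 0.00353). SLC25A12, a mitochondrial aspartate and glutamate carrier, rose by 2.72 at 6 h (adjusted p = 3.33e-05), 3.26 at 12 h (adjusted p = 1.97e-05) and 1.45 at 24 h (adjusted p = 0.00644) from 0.5 ± 0.0451 CPM at 0 h. Its 12 h libraries differed widely (4.78 ± 2.67 CPM). Its more abundant relative SLC25A13, named here after its values were seen, was at 47.9 ± 2.34 CPM at 0 h and rose by 0.61 at 6 h (adjusted p = 2.94e-06) and 0.60 at 24 h (adjusted p = 1.71e-05).

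GLS2, an enzyme that releases ammonia from glutamine, was at 1.59 ± 0.142 CPM at 0 h. It fell by 0.73 on the log2 scale at 6 h (SE 0.26, edgeR adjusted p = 0.0365) and was 0.79 higher at 12 h (SE 0.27, adjusted p = 0.0355). In the proline list of 6 genes, ALDH4A1, which oxidizes the intermediate shared by proline and ornithine to glutamate, had an effect at 24 h that exceeded that at 3 h by 0.64 (adjusted p = 0.000417). The numbers called in this list were 1, 3, 1 and 2 at 3, 6, 12 and 24 h, that is 16.7%, 50%, 16.7% and 33.3% beside the same shares of all genes.

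**Figure D5:**
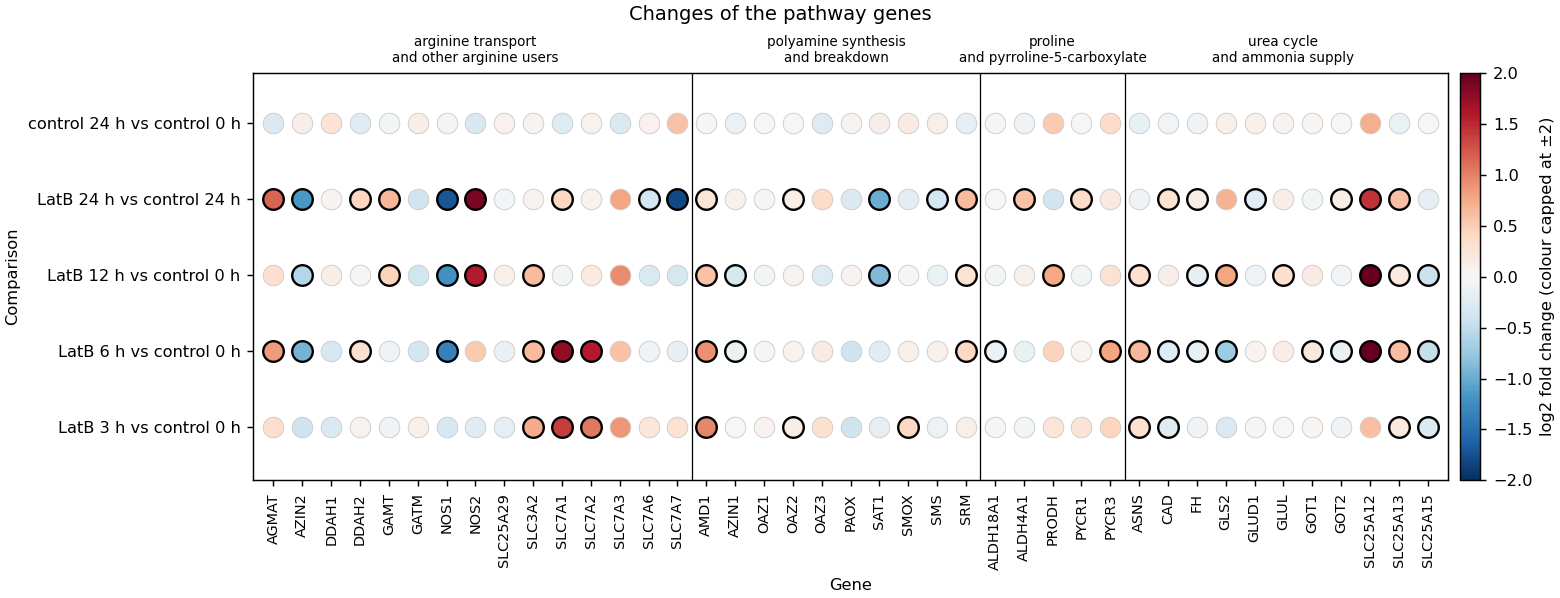
Log2 fold change (colour, capped at 2 in each direction) of 41 of the 43 tested pathway genes (columns, in their 4 lists) in 5 comparisons (rows), with a black ring for adjusted p under 0.05. SLC7A1 and SLC7A2 are dark at 3 and 6 h and pale at 12 h, SAT1 and SLC7A7 are blue at 24 h, and no gene is ringed between the controls.

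The 9 transcription factors and regulators known from work on the urea cycle, arginine synthesis or ornithine decarboxylase were also read out. Of these, 5 rose at 3 h, 8 at 6 h and 6 at 12 h, and 3 rose and 2 fell at 24 h, that is 55.6%, 88.9%, 66.7% and 55.6% of the list beside the shares of all genes given above. MYC, a known activator of ODC1, rose by 2.48 on the log2 scale at 3 h (SE 0.26, edgeR adjusted p = 1.18e-05), from 16.5 ± 0.187 CPM to 92.2 ± 32.3. It was also called higher at 6, 12 and 24 h, by 2.26, 1.4 and 1.44 (adjusted p = 1.61e-05, 0.00187 and 0.00189). ATF4, the factor of the amino acid response, rose by 1.08 at 3 h (SE 0.05, adjusted p = 2.35e-08) and 0.79 at 6 h (adjusted p = 2.28e-07). Its rise at 12 h was 0.42 (adjusted p = 0.000134), and the difference of 0.15 at 24 h was not called. NR3C1, the glucocorticoid receptor, rose by 2.05 at 3 h (SE 0.29, adjusted p = 0.000132) and differed by 0.05 at 24 h.

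Across all 16 libraries and among genes with a mean log2 CPM of at least 3, the genes whose log2 levels followed ASS1 most closely by Pearson's r were RIMKLA (0.970), RTN3 (0.965), YTHDF2 (0.963), ALG11 (0.962) and VPS18 (0.959). The libraries fall into control and treated sets, so such values describe a shared contrast. RIMKLA, an enzyme that joins glutamate to N-acetylaspartate, was near ASS1 in size as well, at 5.47 CPM at 0 h, 21.8 at 3 h, 55.2 at 6 h, 40.7 at 12 h and 35.6 at 24 h with LatB. RTN3, by comparison, went from 182.3 CPM at 0 h to 239.4 at 6 h. Among the other members r with ASS1 was 0.856 for ARG2, 0.745 for ODC1, 0.408 for NAGS, 0.384 for ASL, 0.304 for CPS1 and -0.394 for OAT. Ranked by r among all 16705 genes tested, ASS1 itself included, ARG2 stood at place 481 and ODC1 at place 1417.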

How the data were processed

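Polyadenylated RNA was sequenced in 16 libraries, and per the labels the authors quantified transcripts with Salmon 1.3.0 on hg38. The deposited estimated counts (expected counts) and TPM of each transcript, with its effective length, were summed per gene by GENCODE release 44: of 177456 transcripts 165533 matched by identifier, 151923 in the same version, and 2.917 to 3.167% of reads stayed unmatched. The methods of the study describe another aligner for gene counts. A deposited table of the whole series, with 16 per-sample columns, was not used here.

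Counts were rounded, filtered with edgeR's filterByExpr, scaled by TMM and fitted over the 6 groups with edgeR 4.0.16 (glmQLFit and glmQLFTest, R 4.3.3, two-sided), with Benjamini-Hochberg adjustment over the 16705 genes tested and a threshold of 0.05. LatB at 3, 6 and 12 h was compared with control 0 h and LatB at 24 h with control 24 h, the controls with each other, and the effect at 24 h with that at 3 h. Between genes, levels were compared in TPM. The code was tested on simulated data. Alternatives were DESeq2 1.42.0, other scalings, filters and samples, a length offset, limma 3.58.1 on TPM, a replicate block and each library left out. Depth, 23609727 to 33515398 reads, sets the counting error, and a count of 0 allows up to 3 reads, for counting error only.

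All 9 members were named. Of the pathway lists, up to 3 called rises and 3 called falls per comparison with a mean log2 CPM of at least 0 were named by size, up to 3 of the regulators, and the 5 genes with the highest r to ASS1. Of the genes this rule names, 2 are not reported here. The members and lists were chosen with earlier results of these data known. Promoters came from RefSeq (GRCh38.p14), where all 9 members matched. ASS1, CPS1 and ODC1 had more than 1 window there, and only that nearest the GENCODE start was read. The ARG1 window lay 102394 bases from its GENCODE start, inside the gene span given here.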

Additional observations from a re-analysis of the deposited data

Results flagged for a closer look

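A trio of members was called as differing in response to LatB between times, by a test of the difference between the effect at 24 h (against control 24 h) and at 3 h (against control 0 h) in edgeR's quasi-likelihood fit. For ASL the effect at 24 h was higher by 0.60 on the log2 scale (SE 0.13, adjusted p = 0.00469). For NAGS it was higher by 1.18 (SE 0.38, adjusted p = 0.0317), at 23 to 70 reads per library, and this call was lost without a filter on low counts, with a length offset, with a replicate block and in 5 of 11 omissions of 1 library, with an adjusted p of 0.0183 to 0.0923 over all alternatives. For ODC1 it was higher by 0.39 (SE 0.10, adjusted p = 0.0111), and this call was lost without replicate 1 of control 24 h (0.33, adjusted p = 0.069, and 0.00183 to 0.069 over all alternatives). Without that library ASL alone of the 3 was called. Across all genes 27.9% were called in this test, and the references of the 2 times are different control libraries.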

How the results depend on the processing

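Over the 6 tested members other than ASS1 and the 6 comparisons, 326 of 348 values under alternatives other than omissions kept their direction and side of the threshold, while 8 lost and 4 gained a call and 10 changed sign. Of 228 values with 1 library left out, 207 kept both, 9 lost and 1 gained a call and 11 changed sign. The count of other members called at 3 h was 2 without scaling beyond library size (ARG2 higher, ASL lower), where that at 6 h was 3 (OAT lower). It was 2 when only the compared groups were fitted, and that at 12 h was 1 (ODC1) with only the compared groups. Without scaling, 5342 of all 16705 genes were called at 3 h and 7183 at 6 h. With only the compared groups, 5739 of 15709 genes were called at 3 h. The count of pathway genes called at 12 h was 10 with a length offset, 11 and 10 by limma on logged TPM with pseudocounts of 1 and 0.1, and 8 with only the compared groups. At 24 h it was 15, 14 and 14 under the first 3 of these, and between the controls 1 with only the compared groups. The counts over all genes moved as well. At 12 h they were 4268, 4056 and 3981 of 16705 and 2828 of 15773 in the same order, against 5988 in the main fit. At 24 h they were 5094, 4799 and 4752 of 16705, against 6809. Between the controls 218 of 16000 were called with only the compared groups. With 1 library left out, the count of other members for the difference between 24 h and 3 h was 1 to 3, and that of pathway genes at 24 h was 15 to 22, lowest without replicate 1 of control 24 h. The cause was not tested.

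Values that changed sign were small and not called in either setting. With a length offset and on logged TPM with those pseudocounts, the CPS1 difference between 24 h and 3 h was -0.19, -0.02 and -0.03, OAT at 24 h was 0.04, 0.02 and 0.02, and OAT between the controls was 0.02, 0.03 and 0.03. ODC1 at 3 h was 0.07 with the length offset. Over omissions of 1 library the ranges were -0.19 to 0.01 for ARG2 between the controls, -0.01 to 0.19 for the ARG2 and -0.05 to 0.34 for the CPS1 difference between 24 h and 3 h, -0.22 to 0.36 for NAGS at 12 h, -0.29 to 0.11 for NAGS and -0.10 to 0.06 for OAT between the controls, -0.14 to 0.02 for OAT at 24 h and -0.10 to 0.04 for ODC1 at 3 h. Mean TPM at 24 h with LatB from transcripts of the same version alone was 8.45 for ASS1, 3.69 for ASL, 0.819 for CPS1, 8.70 for OAT and 283.2 for ODC1, against 34.9, 17.6, 1.76, 70.2 and 332.7 from all matched transcripts.

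The groups share replicate numbers, but the deviations of same-numbered libraries from their group means correlated at -0.241 to 0.116 over 36 pairs. These values show no pairing by number. With so few libraries per group they cannot exclude a shared batch. With the replicate block, the NAGS difference between 24 h and 3 h was 1.19 (edgeR adjusted p = 0.0554, and 0.0183 to 0.0923 over its alternatives). The count of other members called there was 2 and the other counts of members did not move. The pathway counts with the block were 11, 22, 16 and 21 at 3, 6, 12 and 24 h. Of all 16705 genes, the block left 4853, 6863, 5364 and 6005 called at these times. For the difference between 24 h and 3 h it left 4107.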
